A study of Homo sapiens with 12 samples.

Results

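The cytosolic ribosome of human cells is built from ribosomal RNA and about as many different proteins as there are genes described here, each of them made from its own messenger RNA. The genes were chosen by symbol alone. Taken were RPL (large subunit) and RPS (small subunit) names that end in digits with at most one of the letters A, X or L, together with RPSA, RPLP0, RPLP1 and RPLP2, provided that their mean level was at least 1 FPKM (fragments scaled for transcript length and library total). The rule matched 82 symbols and kept 79 genes, of which 78 had values in all 3 tables of the study and could be tested among 11075 genes at that level. These 78 comprised 47 genes of the large and 31 of the small subunit, and 1 member had values in 1 table and was not tested. Left out for low levels were 3 symbols, RPL3L and RPL10L among them, which were at or near 0 FPKM.

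The study measured messenger RNA in K562, a human leukemia line with erythroid features, to follow the toxicity of saturated fat. Palmitate, a saturated fatty acid, was given at 0.2 mM coupled to bovine serum albumin, and palmitoleate is its monounsaturated counterpart of equal chain length. RNA of 3 biological replicates was pooled into 1 library for each condition of an experiment. Experiment 1 compared wild-type cells (WT) without fatty acid, with palmitate and with palmitoleate alone, the dose of the latter not being given. Experiment 2 compared untreated WT, WT with palmitate, WT with both acids (0.2 mM each), and cells with a knockout of GPAT4 (GPAT4ko) given palmitate. GPAT4 is an acyltransferase at the first step of glycerolipid synthesis. Experiment 3 compared WT and cells with a knockdown of RNF213 (RNF213kd), a large ubiquitin ligase, each untreated and with palmitate. The exposure was 20 h according to the labels, whereas legends deposited with experiments 2 and 3 say 16 h. How the knockout and knockdown lines were made, and whether a line was 1 clone, is not given in the sources used here.

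Ribosomal proteins are needed in nearly equal numbers, and their messenger RNAs share a terminal oligopyrimidine tract (TOP), a C at the first transcribed base followed by a run of C and T. Through this tract mTORC1 and the RNA-binding protein LARP1 control how much of these messengers is translated, so that their translation can change without a change in their amount. In blood formation the set is known because loss of 1 copy of several members, among them RPS19 and RPS26, causes Diamond-Blackfan anemia, a failure of red cell precursors.

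The tract was read on the gene's strand from RefSeq start sites of the build GRCh38.p14, for the 63 of 78 genes that the table holds. A C at the start followed by at least 4 bases that are each C or T stood at a start of 46 of the 63 genes (73.0%), against 5.14% of all 27305 genes of the table. Within 5 bases of the start such a tract was found in 84.1% of the ribosomal protein genes and in 25.2% of all genes. The genes for mitochondrial ribosomal proteins held it at the start in 8.96%. A match describes the letters at an annotated start and is not evidence of where transcription begins in K562. The starts below belong to genes whose levels or ratios are described further on, each as 10 bases before and 20 bases from the annotated start, 5′ to 3′, with capitals for the longest C and T run that crosses the start or begins within the first 7 transcribed bases.
RPS18: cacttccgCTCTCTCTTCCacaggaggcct
RPS27: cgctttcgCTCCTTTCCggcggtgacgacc
RPL12: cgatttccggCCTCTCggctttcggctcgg
RPL10: ggaggagcgCCTCTTTCCCTTCggtgtggt
RPL37A: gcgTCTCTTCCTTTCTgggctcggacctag
RPL35: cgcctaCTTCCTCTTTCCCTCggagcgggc
RPS26: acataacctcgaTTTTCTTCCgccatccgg
RPS27L: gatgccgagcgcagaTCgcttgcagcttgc
The first 6 carry a C and T run at the start, which begins there in RPL12 and crosses it in the others. In RPS26 the run of 9 begins at the third transcribed base and opens with T, so the gene is counted among those without a tract at the start. RPS27L, the paralog of RPS27, has a run of 2 bases in that stretch. On the plus strand lie RPS18 (chr6:33272065-33272094), RPS27 (chr1:153990752-153990781), RPL10 (chrX:154398367-154398396), RPL37A (chr2:216498834-216498863) and RPS26 (chr12:56041908-56041937). On the minus strand lie RPL12 (chr9:127451387-127451416), RPL35 (chr9:124861938-124861967) and RPS27L (chr15:63157458-63157487).

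In every library the 9 fixed K562 markers, globins, GATA1 and TFRC among them, summed to 5083 to 17850 FPKM, and each averaged at least 1 FPKM. Markers fixed for endothelial cells, epithelial cells, fibroblasts, monocytes and B and T lymphocytes summed to 0.20 to 62.3 FPKM per type, and CD3D, LYZ, COL1A2 and EPCAM were the ones that averaged 1 FPKM or more. GPAT4, listed as AGPAT6, stood at 20.0 FPKM in WT and 8.77 FPKM in GPAT4ko under palmitate. RNF213 stood at 1.96 and 3.08 FPKM in untreated and palmitate-treated WT of experiment 3, and at 1.39 and 1.54 FPKM in RNF213kd. Read counts do not come with the values, so the depth is unknown and the differences among experiments are the only measure of error.

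The ribosomal protein genes were among the most abundant messengers of K562, and 60 to 65 of the 100 highest genes of each library were members. Together they held 31.7%, 28.6% and 30.9% of the summed FPKM of untreated WT in experiments 1, 2 and 3. RPS18, a protein of the head of the small subunit, was highest with a mean of 16654 FPKM over the 11 libraries, from 11209 with both fatty acids to 24376 with palmitate in experiment 1. It was followed by RPS27, a zinc-binding small-subunit protein (mean 8109 FPKM), RPL41, the shortest of the ribosomal proteins (7845), RPLP1 of the stalk (6651) and RPL39, which lines the exit tunnel of the nascent chain (6576). The authors' table places RPS18 on an alternative haplotype sequence of chromosome 6 in hg19, and how its level depends on reads shared with the other copies was not tested.

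**Figure D1:**
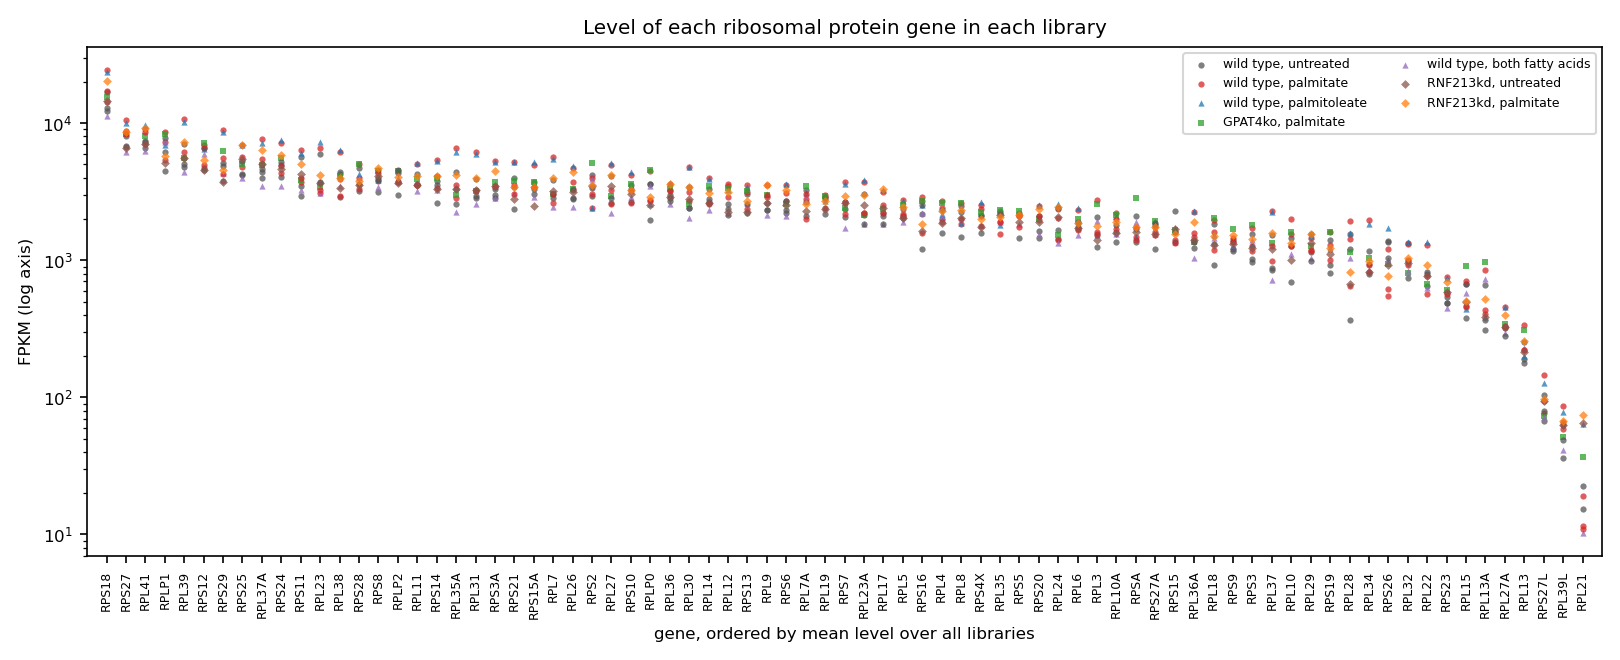
FPKM (log axis) of 77 of the 78 ribosomal protein genes in the 11 libraries, 1 point per library, with genes ordered by mean level and colours for the conditions. Means run from 16654 FPKM for RPS18 at the left down to 351 FPKM for RPL27A and then fall to RPL13, RPS27L, RPL39L and RPL21 at the right. RPL21 was listed at 0 in untreated cells of experiment 1, which a log axis cannot show.

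At the lower end stood RPL21 (mean 29.9 FPKM), RPL39L (60.0), RPS27L (93.8), RPL13 (237) and RPL27A (351). RPL39L and RPS27L are paralogs that can stand in for RPL39 and RPS27 in the ribosome, and each was far below its parent in every library. RPL39L ranged from 36.3 to 86.1 FPKM while RPL39 ranged from 4437 to 10720 FPKM. RPS27L ranged from 66.8 to 146 FPKM and RPS27 from 6182 to 10543 FPKM. Levels set across experiments are descriptive, because the authors scaled each table on its own.

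With palmitate, most ribosomal protein messengers were slightly higher in WT cells, and none passed the test. The mean log2 ratio of palmitate to untreated over the 3 experiments, on the log2(FPKM + 1) scale, was above 0 for 70 of 78 members, and it was above 0 for 45.8% of all tested genes. The members' median ratio was 0.23, against -0.06 for all tested genes, and it was alike for the large subunit (0.23) and the small subunit (0.24). By experiment the median was 0.35, 0.10 and 0.21, against -0.01, -0.05 and -0.03 for all tested genes. In experiment 1, 65 of 78 members were above 0 (48.5% of all tested genes), with 18 at least 1.5-fold higher and 0 lower (17.6% and 23.4%). In experiment 2, 58 were above 0 (46.6%), with 2 at that fold higher and 1 lower (21.4% and 24.5%). In experiment 3, 60 were above 0 (46.9%), with 2 higher and 2 lower (13.8% and 11.9%). Most members thus lay above 0 by small ratios, and the median was highest in experiment 1. In all 3 experiments 48 members were higher and 4 were lower with palmitate, where 25.9% and 29.6% of all tested genes were. Each log2 ratio was formed within 1 table, and limma with Benjamini-Hochberg adjustment over 11075 genes called 0 of 78 members, where it called 10.4% of all tested genes (6.59% higher and 3.84% lower). At an unadjusted p under 0.05 were 7 members, 6 higher and 1 lower, against 32.6% of all tested genes. The p-values measure the spread of the 3 paired ratios between experiments, moderated over genes, and each ratio comes from 1 pooled library a condition.

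**Figure D2:**
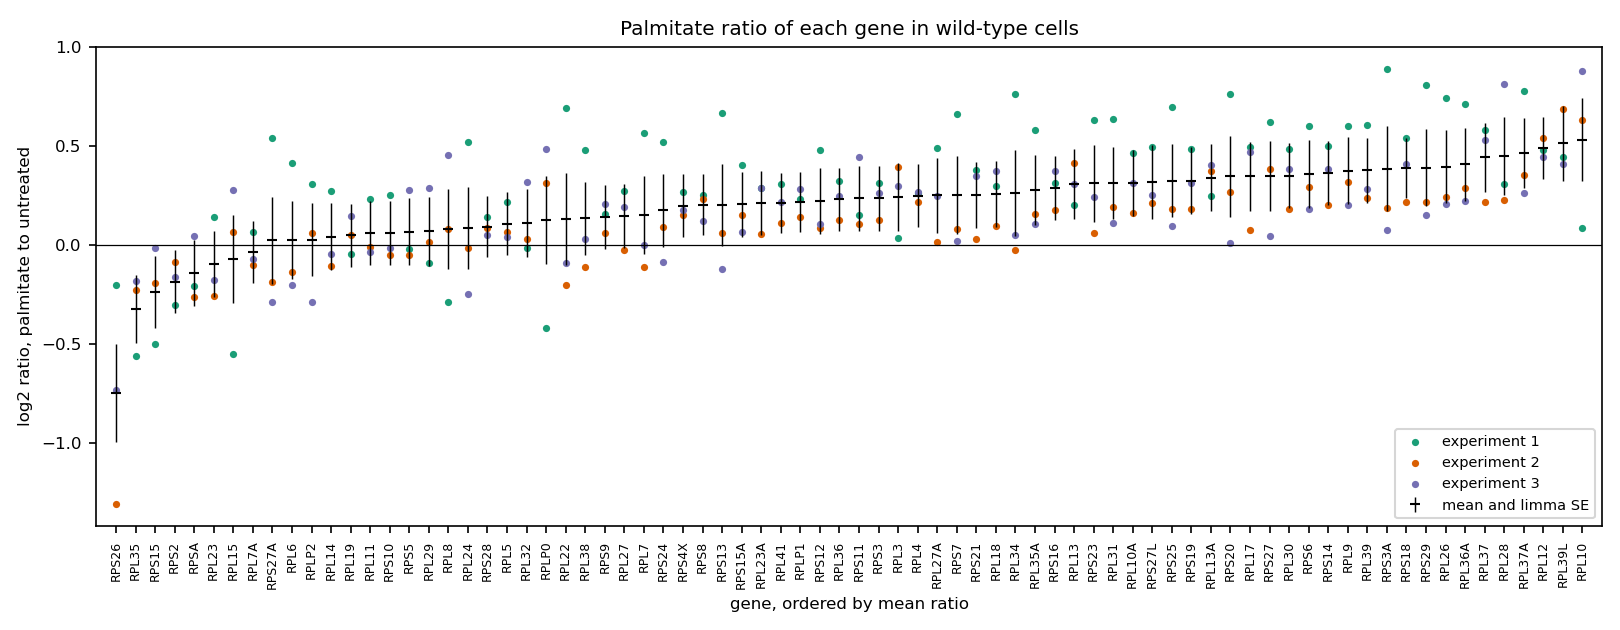
Log2 ratio of palmitate to untreated in WT cells for 76 ribosomal protein genes ordered by their mean (RPL21, whose ratios run from -0.97 to 4.33, is left out, and 1 further member is not shown). Points are the 3 experiments, black ticks the mean and vertical lines the limma standard error. RPS26 lies below all others, and most means lie between 0 and 0.53.

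The share of the summed FPKM held by the members was higher with palmitate in each experiment. It was 35.8% against 31.7% in experiment 1, 31.6% against 28.6% in experiment 2 and 34.4% against 30.9% in experiment 3. The difference was 3.55 ± 0.58 percentage points (SD, n = 3), with no test. These are shares of a whole, so a rise of the members' RNA cannot be told apart from a fall of other RNA. Nor can fewer cells of a type be told apart from less RNA per cell. The summed FPKM differed between libraries. Untreated and with palmitate it was 704359 and 817362 in experiment 1, 730566 and 719404 in experiment 2, and 613623 and 612355 in experiment 3. With palmitoleate it was 821188. The main FPKM ratios were not adjusted for these totals.

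Among the members with the highest mean ratios, RPL12 had even ratios of 0.48, 0.54 and 0.45. RPL12 sits at the base of the stalk, where elongation factors dock (chr9:130209953-130213711 in hg19, the authors' build). Its level went with palmitate from 2575 to 3596 FPKM in experiment 1, from 2374 to 3454 in experiment 2 and from 2125 to 2895 in experiment 3. All 3 palmitate libraries lay above all 3 untreated ones. The log2 ratio was 0.49 ± 0.16 (limma SE, n = 3), with an adjusted p of 0.095.

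RPL10, which joins the large subunit late and lies close to the peptidyl transferase centre (chrX:153626571-153650063), had uneven ratios. It went from 1455 to 1545 FPKM, from 1280 to 1983 FPKM and from 690.4 to 1270 FPKM in experiments 1, 2 and 3. The untreated library of experiment 1 lay above the palmitate library of experiment 3, so the groups overlapped across tables, although palmitate was higher within each. The log2 ratio was 0.53 ± 0.21 (limma SE, n = 3; adjusted p = 0.147).

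RPL39L followed with a log2 ratio of 0.51 (adjusted p = 0.128 by limma), from 62.9 to 86.1 FPKM, from 36.3 to 59.0 FPKM and from 49.2 to 65.6 FPKM. Its abundant parent RPL39 had a ratio of 0.38 (adjusted p = 0.176). The zinc-binding proteins RPL37A and RPL37 stood at 0.47 and 0.44, RPL28 at 0.45 and RPL36A at 0.41, with adjusted p of 0.135 to 0.186. RPS18, the most abundant member, had a ratio of 0.39 (adjusted p = 0.144) and went from 16781 to 24376 FPKM, from 12349 to 14363 FPKM and from 12983 to 17227 FPKM. In each experiment the palmitate library was the higher one for all of these genes.

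The acidic stalk proteins differed among themselves. RPLP1 had ratios of 0.23, 0.14 and 0.28 in experiments 1 to 3, RPLP2 of 0.31, 0.06 and -0.29, and RPLP0, which anchors them, of -0.42, 0.31 and 0.48. RPLP0 was thus lower with palmitate in experiment 1 and higher in the other two. RPL5 and RPL11, which enter the ribosome with the 5S RNA and bind MDM2 when assembly fails, had mean ratios of 0.11 and 0.06. RPS6, the target of the S6 kinases, had a ratio of 0.36 (adjusted p = 0.207), and RPS4X, encoded on the X chromosome, of 0.20 (adjusted p = 0.423).

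RPS26 had the lowest ratio of all members. It lines the channel through which messenger RNA leaves the small subunit and is mutated in Diamond-Blackfan anemia (chr12:56435686-56438007). Its level was 1381 FPKM untreated and 1202 with palmitate in experiment 1, 1367 and 552 in experiment 2, and 1031 and 619 in experiment 3. The palmitate library was the lower one in each experiment, by little in the first and by most in the second. The log2 ratio was -0.75 ± 0.25 (limma SE, n = 3), with an adjusted p of 0.102, and stood at percentile 11.1 of all tested genes. The call depends on the genes fitted with it: with small RNA genes left out of the fit the ratio was the same and the adjusted p was 0.037, in a fit that called 11.1% of all genes lower.

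The other tested genes fixed by role for Diamond-Blackfan anemia had mean ratios above 0, and none passed the limma test. RPS19 had a ratio of 0.33, RPL35A of 0.28, RPS24 of 0.18 and RPS10 of 0.06, with adjusted p of 0.239 to 0.816. RPL15 and RPL35, which are also linked to the disease, had -0.07 and -0.32, but they were named for being among the lowest ratios. The full set of genes linked to the disease was not gathered, so these values do not describe it.

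After RPS26 the lowest mean ratios were those of RPL35, a protein at the rim of the exit tunnel, RPS15 of the small-subunit head and RPS2, which lies near the entry of the messenger. RPL35 (chr9:127615755-127624240) went from 2300 to 1558 FPKM, from 2216 to 1894 FPKM and from 2159 to 1906 FPKM. Its log2 ratio was -0.32 ± 0.17 (limma SE, n = 3; adjusted p = 0.250), and all palmitate libraries lay below all untreated ones. RPS15 (-0.24) and RPS2 (-0.18) were also lower in each experiment, with adjusted p of 0.398 and 0.453. With a trend on GC content removed these 3 ratios were 0.02, 0.01 and 0.01, so that their sign turned, and that of RPS26 did not. RPSA (-0.14), RPL23 (-0.10), RPL15 (-0.07) and RPL7A (-0.03) had mean ratios below 0 with experiments on both sides of it.

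**Figure D3:**
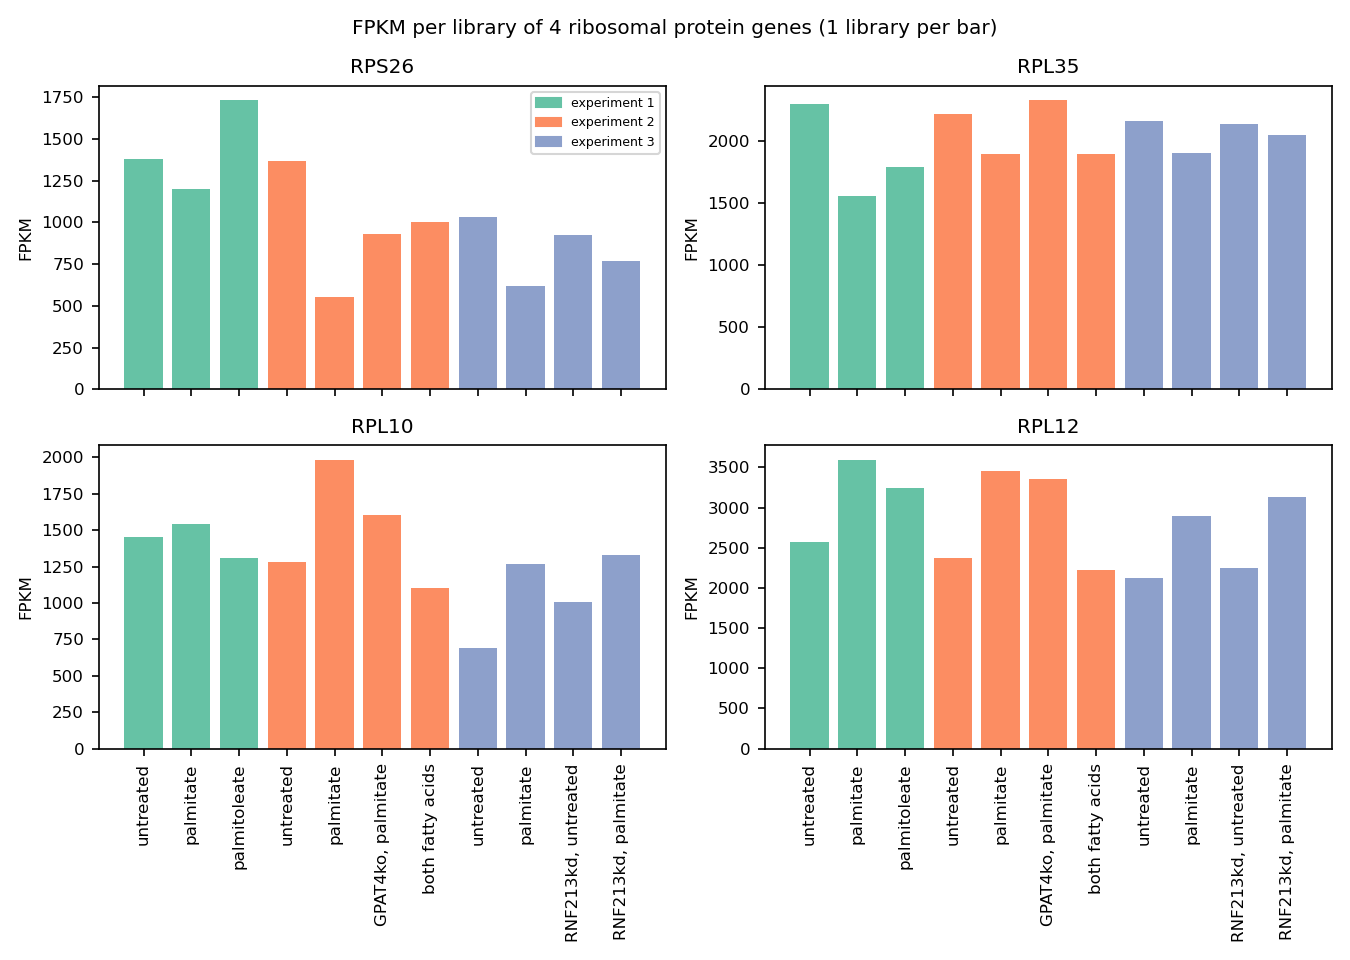
FPKM of RPS26, RPL35, RPL10 and RPL12, 1 bar per library and 1 colour per experiment, with axes that start at 0. RPS26 and RPL35 are lower and RPL10 and RPL12 higher with palmitate than untreated in each experiment, and with both fatty acids RPS26 stands at 1001 and RPL10 at 1105 FPKM.

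The members' ratios moved with base composition differently in each experiment. Over 78 members, Spearman's rho between the palmitate ratio and the GC content of the longest annotated transcript was -0.54 in experiment 1, -0.07 in experiment 2 and 0.25 in experiment 3. Over 10623 tested genes it was -0.63, -0.02 and 0.15. The genes of 1 library share its depth and base bias, so these values are descriptive. RPS3A (0.89) and RPS29 (0.81), both low in GC, had the highest ratios of experiment 1 after RPL21, and had 0.08 and 0.15 in experiment 3. Not all members with low GC stood high in experiment 1. RPL5, the lowest in GC (37.4%), had 0.22, and RPSA (43.0%) had -0.21. Members' GC ran from 37.4 to 63.7%, with a median of 47.9% against 47.6% for tested genes. With the GC trend removed, limma called 3 members higher, where it called 15.3% of all genes in that fit: RPL10 (0.64), RPL12 (0.62) and RPL28 (0.62), with adjusted p of 0.044, 0.038 and 0.045. With a length trend removed it called 2 members, RPL12 and RPS18, where it called 10.1% of all genes higher. The 46 genes with a C and T tract at an annotated start had a median ratio of 0.26 and the 17 without had 0.20, with no test.

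**Figure D4:**
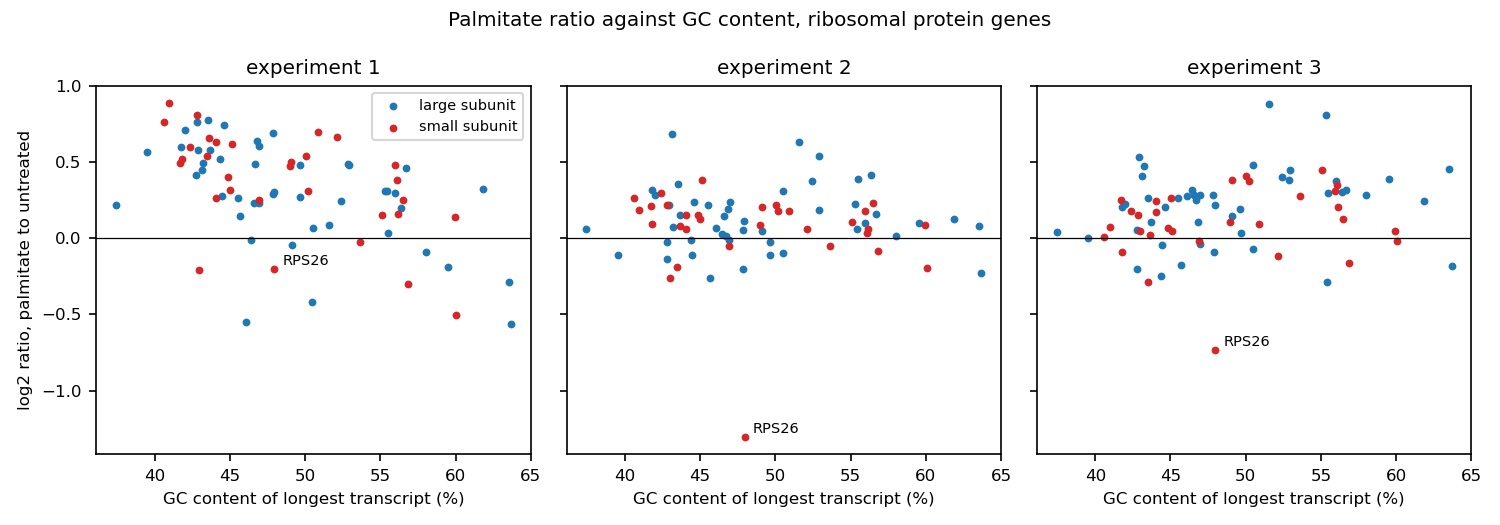
Log2 ratio of palmitate to untreated in WT against GC content (percent) of the longest transcript, 1 panel per experiment and 1 point per ribosomal protein gene, without RPL21. The points slope down in experiment 1 (rho of -0.54 over 78 members) and have no such downward slope in experiments 2 and 3, and RPS26 lies apart in the latter.

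Some members share their sequence with processed pseudogenes, and their values can depend on how reads were divided. RPL21 is the extreme case. It was listed at 0, 15.4 and 22.4 FPKM in untreated WT and at 19.1, 11.5 and 11.0 FPKM with palmitate, while its pseudogene RPL21P28 was listed at 2405 to 3669 FPKM. The pair summed gave a mean ratio of 0.18, in place of 0.99 for RPL21 alone. Likewise RPL13A stood at 308 to 963 FPKM and its pseudogene RPL13AP5 at 2170 to 3724 FPKM, and the pair summed gave 0.46 in place of 0.34. Below, RPL21 is counted by the rule where it passes a fold, and how its ratios depend on the division of reads was not tested. Summed with RPL21P28 it stood at 0.62 for palmitoleate against untreated, 0.0049 for palmitoleate against palmitate, -0.05 for GPAT4ko against WT under palmitate, and 0.23 and -0.32 for RNF213kd against WT with and without palmitate.

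With palmitoleate alone, 66 of 78 members were higher than in untreated cells of experiment 1, and 50.7% of all tested genes were. This and the following comparisons set 1 library against 1, so they have no test, and a gene was counted where it differed at least 1.5-fold. At that fold 18 of 78 members were higher and 1 was lower, where 6.23% and 18.5% of all tested genes were, and the median ratio was 0.37 against 0.01 for all. The highest after RPL21 were RPS3A (0.86), RPS20 (0.78), RPL26 (0.78) and RPL22 (0.78), and the lowest were RPL15 (-0.60) and RPLP0 (-0.47). RPS26 was 1730 FPKM with palmitoleate and 1381 FPKM untreated. Palmitate and palmitoleate were compared with the same untreated library. The GC dependence was also present, with a rho of -0.53 over members and -0.75 over all tested genes.

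Set directly against palmitate, at a palmitoleate dose that may differ, palmitoleate left the members' median at -0.01, with 35 of 78 above 0 (52.1% of all tested genes). Only RPL21 differed 1.5-fold (higher), where 7.77% of all tested genes were higher and 11.0% lower. RPS26 was next at 0.53 (1730 against 1202 FPKM), followed by RPL35 (0.20), and the lowest was RPL28 at -0.28.

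With both fatty acids, 73 of 78 members were lower than with palmitate alone, and 5 were higher (52.5% of all tested genes). The median ratio was -0.28, against 0.05 for all tested genes. At least 1.5-fold different were 1 member higher and 2 lower, where 21.6% and 19.1% of all tested genes were. RPS26 was the 1 higher (0.86), at 1001 against 552 FPKM. RPL10 (-0.84, at 1105 against 1983 FPKM) and RPL12 (-0.63, at 2225 against 3454 FPKM) were the 2 lower. Their mean ratios of palmitate to untreated were -0.75, 0.53 and 0.49, and the comparisons share the palmitate library of experiment 2. Against untreated cells of the same table, 75 of 78 members were lower with both acids, 3 were higher (46.2% of all tested genes), and 0 reached 1.5-fold, where 3.96% of all tested genes were higher and 1.83% lower. The median was -0.18 (all tested genes -0.02), and RPS26 stood at -0.45. Above 0 were RPL39L (0.19), RPL13A (0.17) and RPS27L (0.11). The members' share of the summed FPKM was 28.5%, against 28.6% untreated, with a lower summed FPKM (653590 against 730566).

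In GPAT4ko given palmitate, the members' median ratio to WT given palmitate was 0.08, against 0.05 for all tested genes, and 53 of 78 members were above 0 (52.9% of all tested genes). Higher by 1.5-fold were RPL21, RPS26 (0.76, at 932 against 552 FPKM) and RPSA (0.71, at 2863 against 1750 FPKM), and 0 were lower, where 18.7% and 16.4% of all tested genes were. RPSA, a small-subunit protein also known as the laminin receptor precursor, was at 2097 FPKM in untreated WT, so its level in GPAT4ko lay above both WT libraries. RPL32 (-0.32), RPL28 (-0.31) and RPL10 (-0.31) were lowest. With the length trend removed the median was -0.06, so its sign depended on that choice.

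In RNF213kd, 75 of 78 members were higher with palmitate than untreated (45.2% of all tested genes), with a median ratio of 0.25 against -0.03 for all tested genes, and 0 reached 1.5-fold in either direction, where 7.14% were higher and 3.83% lower. RPS18 (0.49), RPL26 (0.48), RPL12 (0.47) and RPS15A (0.45) were highest. The 3 below 0 were RPS26 (-0.26, from 924 to 771 FPKM), RPS15 (-0.12) and RPL35 (-0.06). These 3 were also lower in all 3 WT experiments, which used other libraries. The WT ratios of RPS15 and RPL35 were 0.01 and 0.02 with the GC trend removed. The knockdown's palmitate ratio also moved with GC content, with a rho of -0.272 over members and -0.245 over all tested genes. In WT of the same experiment the members' median was 0.21, and the difference between the lines was not tested.

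Under palmitate, 77 of 78 members were higher in RNF213kd than in WT (55.4% of all tested genes), with a median of 0.23 against 0.04 for all tested genes. RPS15A (-0.01) was the exception, and RPL21 was the 1 member at 1.5-fold, where 2.39% of all tested genes were higher and 3.06% lower. Their share of the summed FPKM was 36.4% in RNF213kd and 34.4% in WT, and the summed FPKM was also higher in RNF213kd (673981 against 612355). Without fatty acid 57 of 78 members were higher in RNF213kd (54.8% of all tested genes). The median was 0.15 against 0.03, with 2 members, RPL21 and RPL28 (0.88), higher and 0 lower by 1.5-fold, where 2.58% and 1.07% of all tested genes were. RPL28 stood at 674 FPKM in RNF213kd and at 367 FPKM in WT, the lowest of its 11 values. That comparison also moved with GC content, with a rho of 0.365 over members and 0.63 over all tested genes.

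Lists of other genes that serve the ribosome had medians below 0 in the WT palmitate comparison, or near it. Of 62 assembly factors, which process ribosomal RNA and build the subunits, 14 fell and 0 rose by limma with Benjamini-Hochberg adjustment, where 3.84% of all tested genes fell and 6.59% rose, with a median ratio of -0.76. The same shares stand behind the main counts of the other lists. Examples were RRP9 (-1.53 ± 0.32 SE, adjusted p = 0.042), a component of the U3 particle, and BOP1 (-1.42 ± 0.30 SE, adjusted p = 0.043), of the PeBoW complex. GRWD1, a chaperone of RPL3, fell by 1.20 (adjusted p = 0.038) and was 1 of 7 chaperones of single ribosomal proteins to pass. Of 76 mitochondrial ribosomal protein genes 7 fell, with a median of -0.45, among them MRPS34 (-1.34) and MRPL34 (-1.21). RNA polymerase I genes had 3 of 15 lower, CD3EAP (-1.55) and POLR1A (-1.17) included, and 1 higher, TAF1D (1.38). Without experiment 1, without experiment 3 or with no filter on low values, 0 genes of these lists were called. In these settings 0 of all genes were called, so the loss is not particular to the lists. Without experiment 2 the assembly factors had 3 called lower, mitochondrial ribosomal proteins had 2, polymerase genes had 1 and the chaperones had 0. Without the pairing by experiment, 1 assembly factor, 0 mitochondrial ribosomal proteins, 0 polymerase genes and 0 chaperones were called lower. Over all tested genes, 291 were called lower without experiment 2 and 52 without the pairing. The counts were larger with the GC trend removed (31 assembly factors and 14 mitochondrial ribosomal proteins lower) and with small RNA genes left out (31 and 17). With the length trend removed 22 assembly factors were lower. Those 3 fits also called more of all genes lower. They called 1308 of 10623, 1206 of 10874 and 675 of 10623 in the order given.

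Of 16 genes that act on mTORC1 or on TOP messengers, 2 rose and 1 fell, where 6.59% and 3.84% of all tested genes did. DDIT4 and SESN2, which are stress-induced inhibitors of mTORC1, rose by 3.27 and 2.69 on the log2 scale (adjusted p = 0.024 and 0.031 by limma), and LARP1 fell by 1.08 (adjusted p = 0.041). GTPBP2, a factor for stalled ribosomes, rose by 2.05 (adjusted p = 0.037) as 1 of 9 quality-control genes. Without experiment 1 or 3, or with no filter, these 4 calls were lost too, in fits that called 0 of all genes. The LARP1 call was lost without experiment 2, and without the pairing 1 of the 4 was left. Other translation genes listed as TOP messengers, 19 in number, had 0 called in either direction and a median of 0.08, with 1 at an unadjusted p under 0.05 in each direction. These were TPT1 at 0.75 (adjusted p = 0.054) and NPM1 at -0.78 (adjusted p = 0.107). FAU, which encodes a ribosomal protein fused to a ubiquitin-like protein under a symbol outside the rule, stood at 0.08.

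**Figure D5:**
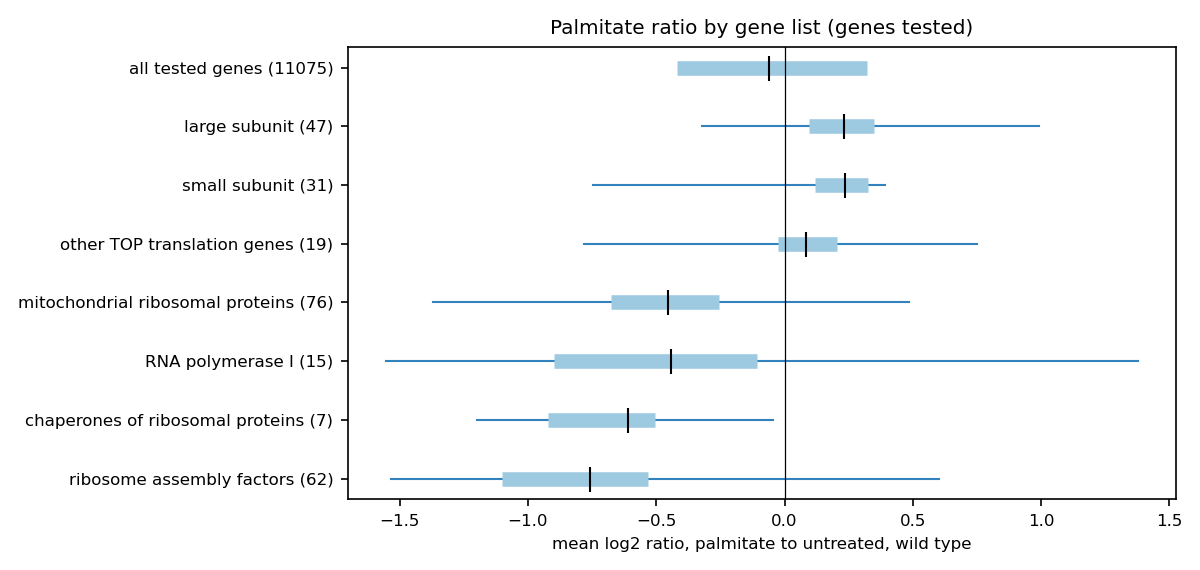
Mean log2 ratio of palmitate to untreated in WT by gene list (number tested in brackets): black tick, median; thick bar, interquartile range; thin line, lowest to highest gene (not drawn for all tested genes). The large and small subunit have medians of 0.23 and 0.24, while mitochondrial ribosomal proteins, RNA polymerase I, chaperones and assembly factors have medians from -0.44 to -0.76.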

How the data were processed

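Messenger RNA was measured in 12 labelled K562 libraries of 3 experiments, and 11 have values under their names. Comparisons with the untreated GPAT4 knockout were therefore not made. TopHat2 mapped the reads to hg19, per the submitters' processing notes, and Cuffdiff gave the deposited FPKM, scaled by the authors within 1 table per experiment. The versions are not given in the sources used here. Dropped were 26 symbols turned into dates, genes marked failed or capped, and genes whose listings differed by over 0.01. The tables hold 2 libraries without labels, which were not used.

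Ratios of log2(FPKM + 1) were formed within a table. The wild-type palmitate response is the mean of 3 ratios, tested over the 11075 genes that averaged 1 FPKM or more, using R 4.3.3 and limma 3.58.1 (moderated variance, intensity trend, Benjamini-Hochberg threshold 0.05), after a check on simulated data. The samples were paired by experiment. Deviations of untreated and palmitate libraries of 1 experiment correlated at 0.46, 0.63 and 0.70, and those of different experiments at -0.53 to 0.01. Deviations from a mean over 3 experiments add up to 0. The low values between experiments thus follow in part from the values within and are not separate evidence. Other comparisons are 1 library against 1, counted past 1.5-fold. The longest GENCODE transcript in GRCh37 gave each gene's GC content and length (95.9% of tested genes, all 78 members).

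Members and lists were chosen with earlier results of these data known. Named members are the 5 highest and lowest by level, the 8 highest and lowest by ratio, the 4 highest and lowest of each other comparison, and fixed genes by role; of other lists, the 3 largest ratios. RPS3A, RPS29, RPL5 and RPSA in experiment 1 were named after their values were seen. Some genes covered by these rules are not reported here by name.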

Additional observations from a re-analysis of the deposited data

Results flagged for a closer look

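RPS2, a small-subunit protein near the entry of the messenger, was lower with palmitate in each of the 3 wild-type experiments and not in the RNF213 knockdown. It went from 2946 to 2388 FPKM, from 4217 to 3971 FPKM and from 3391 to 3028 FPKM in wild type, and from 3467 to 3540 FPKM in the knockdown, a log2 ratio of 0.03. In wild type the mean log2 ratio was -0.18 (adjusted p = 0.453 by limma), and it was 0.012 with the GC trend removed. The knockdown has 1 library per condition, so the difference was not tested. Opposite signs of this kind were found for 1 of 78 members and for 364 of 11075 tested genes.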

How the results depend on the processing

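The members' median palmitate ratio in wild type stayed above 0 in each alternative, from 0.16 to 0.33, and the number of members called higher or lower was 0 in the main analysis. With the GC trend removed 3 were called higher, with the length trend removed 2 (RPL12 at 0.60 and RPS18 at 0.51), and with small RNA genes left out 1 was called lower (RPS26). Leaving out 1 experiment gave 0 to 1 called higher, the 1 being RPL21 without experiment 2 (1.68, adjusted p = 0.000969 by limma, where the spread was pooled over all genes). Calls over all genes, 730 higher and 425 lower, were 0 and 0 with no filter, 1621 and 1308 with the GC trend removed, 1233 and 1206 without small RNA genes, and 675 lower with the length trend removed. Leaving out 1 experiment gave 0 to 599 higher and 0 to 291 lower. Without the replicate block, that is without the pairing by experiment, 262 and 52 genes and 0 members were called. The cause of these changes was not tested.

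Among the members named by rule, mean ratios changed sign without experiment 1 for RPL11 (-0.025 to 0.109), RPL15 (-0.243 to 0.172), RPL21 (-0.679 to 1.969), RPL22 (-0.146 to 0.301), RPL38 (-0.038 to 0.257), RPL6 (-0.17 to 0.139), RPL7 (-0.056 to 0.281), RPLP2 (-0.114 to 0.186), RPS10 (-0.033 to 0.117) and RPS27A (-0.235 to 0.178), and without experiment 3 for RPLP0 (-0.052 to 0.399), with the range over the 3 experiments left out in turn in brackets. With the GC trend removed the sign changed for RPL35 (0.018), RPL6 (-0.008), RPL7A (0.053), RPS15 (0.014) and RPS2 (0.012), and with the length trend removed for RPL15 (0.014) and RPL7A (0.092).

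At a fold of 2, palmitoleate against untreated had 1 member higher and 0 lower, and both acids against palmitate had 0 and 0. The GPAT4 knockout and the untreated RNF213 knockdown had 1 higher each. That 1 member was RPL21 every time, with log2 ratios of 6.02, 1.60 and 1.49. Summed with RPL21P28 the ratios were 0.62, -0.05 and -0.32. With the length trend removed, palmitoleate against untreated had 0 lower, both acids against palmitate had 7 lower, and the median for the GPAT4 knockout was -0.062. The shares of all tested genes at these settings are not given, so the counts have no background beside them. Depth is unknown, and comparisons of 1 library with 1 have no measure of spread.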
